A study of Mus musculus with 27 samples.

Results

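Colon and cecum of mice on control feed were compared in the 9 libraries of these groups among the 27 libraries of the study, which were all the libraries labelled colon or cecum on that feed. The colon group held 5 libraries, numbered 1, 2, 3, 4 and 5, and the cecum group held 4 libraries, numbered 1, 2, 4 and 5. Both groups came from male C57BL/6 mice that arrived at 6 weeks of age, had 7 days of acclimatization and then ate standard feed for 60 days, with 10 mice in each feed group. The same contrast was available in other mice fed 30 ug arsenic per g of feed over the same time, given as sodium salts of arsenite, arsenate, DMA and MMA (4 colon and 5 cecum libraries), and 4 ileum libraries on control feed shared the fit. Poly-A RNA was sequenced from bulk tissue, and the labels do not say which stretch of the colon was taken or whether muscle was trimmed off. They also do not say whether libraries of a group came from separate mice, so p-values measure only the spread between these libraries.

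Levels are TMM-scaled CPM, the counts of a gene as a share of its library on a common scale, and a fold change is colon over cecum on the log2 scale. A gene was called when its edgeR quasi-likelihood test had a Benjamini-Hochberg adjusted p under 0.05. The libraries held 16842463 to 17744718 counts in colon and 16647546 to 18083282 counts in cecum. The labelled regions were checked against their markers. Car1, the carbonic anhydrase of large-intestinal surface cells, was at 1180 to 12900 CPM in colon and 26400 to 34500 CPM in cecum, against 0 to 23.1 CPM in ileum. Hoxb13, a homeobox factor of the hindmost body, was at 45.5 to 237 CPM in colon 2 to 5, at 0 CPM in colon 1 and at 0 to 0.0627 CPM in cecum. Both regions thus carried Car1 at levels far above ileum, and next to no Hoxb13 was counted in cecum or in colon 1.

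The colon libraries differed among themselves more than the cecum libraries did. Across tested genes, Pearson's r of log2 levels ran from 0.945 to 0.991 between colon libraries and from 0.991 to 0.994 between cecum libraries, as a description with no test. Colon 1 was nearest to cecum (r of 0.959 to 0.964 with cecum libraries), and colon 3 (0.933 to 0.940) and colon 4 (0.934 to 0.939) were farthest. Among genes called higher in colon, colon 1 was the lowest colon library in 46.7%, and among genes called lower it was the highest in 50.2%. Pancreatic enzyme transcripts set colon 2 and colon 3 apart. The 13 of 17 pancreatic acinar genes that the filter on low counts left out, since too few libraries held them, summed to 0.89, 1020, 854, 1.71 and 0.884 CPM in colon 1 to 5, against 0.063, 0.7, 0.348 and 0.564 CPM in cecum. Ctrb1, a chymotrypsinogen picked after its values were seen, reached 200 CPM among them. Of the genes named below, none lost its call without colon 1, except Bmi1, Cd74, Ctrl, Hoxc8, Irf7 and Oasl1 where ileum was also left out of the fit (edgeR adjusted p of 0.0532 to 0.127). Calls lost without colon 2 and 3 are given with that value, and the stretch of colon sampled was not tested as a cause because the labels do not give it.

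The cecum is a blind pouch at the start of the large intestine in which microbes ferment fibre, and the colon beyond it takes up salt and water and moves formed stool along. Hox genes are switched on in order along the gut, the 13th paralogs at its hind end, and each stretch of epithelium and muscle carries a regional set of transcription factors. Colonocytes absorb sodium chloride and burn short-chain fatty acids, goblet cells secrete the mucus that holds microbes away, enteroendocrine cells release hormones, and nerves and interstitial cells of Cajal pace the muscle.

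Promoters of 4 genes among the 15 largest rises and the 15 largest falls are shown, since these genes carry the sharpest differences between the regions. RefSeq windows on GRCm38.p6 were matched for 23 of the 30 genes, and the 250 bases before the start are printed 5′ to 3′ on the gene's strand. Capitals mark matches on either strand to 3 motifs, which were CCAATAAA for the posterior HOX13 factors, CAAAGTCCA for HNF4A and TATAAA for the TATA box. No printed matches overlapped. For a gene with several windows, the window with the most TATA matches is printed.
Tgm3 (chr2:130012090-130012339, + strand, 1 TATA match as TATAAA): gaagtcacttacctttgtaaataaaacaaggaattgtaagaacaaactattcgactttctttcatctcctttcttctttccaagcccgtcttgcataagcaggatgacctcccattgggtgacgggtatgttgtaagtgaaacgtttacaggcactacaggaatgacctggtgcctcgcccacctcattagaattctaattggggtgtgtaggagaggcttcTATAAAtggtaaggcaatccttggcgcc
Mptx1 (chr1:174330268-174330517, + strand, 2 TATA matches as TTTATA): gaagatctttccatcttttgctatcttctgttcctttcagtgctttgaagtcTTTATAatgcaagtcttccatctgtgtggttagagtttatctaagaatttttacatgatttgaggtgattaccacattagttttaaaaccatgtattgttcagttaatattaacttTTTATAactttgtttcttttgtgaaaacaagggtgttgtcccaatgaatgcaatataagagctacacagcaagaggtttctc
Slc26a1 (chr5:108674797-108675046, - strand, 1 TATA match as TTTATA, 1 of 2 windows of this gene): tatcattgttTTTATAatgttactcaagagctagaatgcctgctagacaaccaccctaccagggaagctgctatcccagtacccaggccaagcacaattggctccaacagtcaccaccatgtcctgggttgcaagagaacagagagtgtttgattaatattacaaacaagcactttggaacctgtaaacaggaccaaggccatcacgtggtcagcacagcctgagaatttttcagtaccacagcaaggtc
St3gal5 (chr6:72097358-72097607, + strand, no match): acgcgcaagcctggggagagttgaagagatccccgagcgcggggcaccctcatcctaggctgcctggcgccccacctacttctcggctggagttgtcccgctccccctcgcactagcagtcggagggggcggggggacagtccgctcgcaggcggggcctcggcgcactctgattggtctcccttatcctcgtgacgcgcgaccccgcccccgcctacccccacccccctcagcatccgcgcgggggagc

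The TATA letters were found before 5 of the 11 rises with a window (45.5%) and 6 of the 12 falls (50%), against 14.3% of 27025 genes with a window. The HOX13 and HNF4A letters were found before 0 of the 23, against 1.2% and 0.451% of all. A match describes letters and not a bound site, and a missing match says only that these letters are not in the window.

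Of 16882 genes tested, 7970 were called (47.2%), 3704 higher in colon (21.9%) and 4266 lower (25.3%). The called genes split differently by size, since 2283 (13.5%) were over 2-fold higher and 711 (4.21%) were over 2-fold lower in colon. Among all tested genes, called or not, every colon library lay above every cecum library in 2728 (16.2%) and below in 3441 (20.4%). The median log2 fold change over all tested genes was -0.05. With upper-quartile scaling it was 0.09, and the calls then split into 4458 higher and 2719 lower, and lists whose median changed sign with that scaling are named with both medians. Without colon 2 and 3 there were 6033 calls (3025 higher and 3008 lower), and without colon 1 there were 8931 (4092 higher and 4839 lower). Gene lists are described below by the members called in each direction and the median log2 fold change, to be read against 21.9% higher, 25.3% lower and -0.05 over all tested genes.

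**Figure D1:**
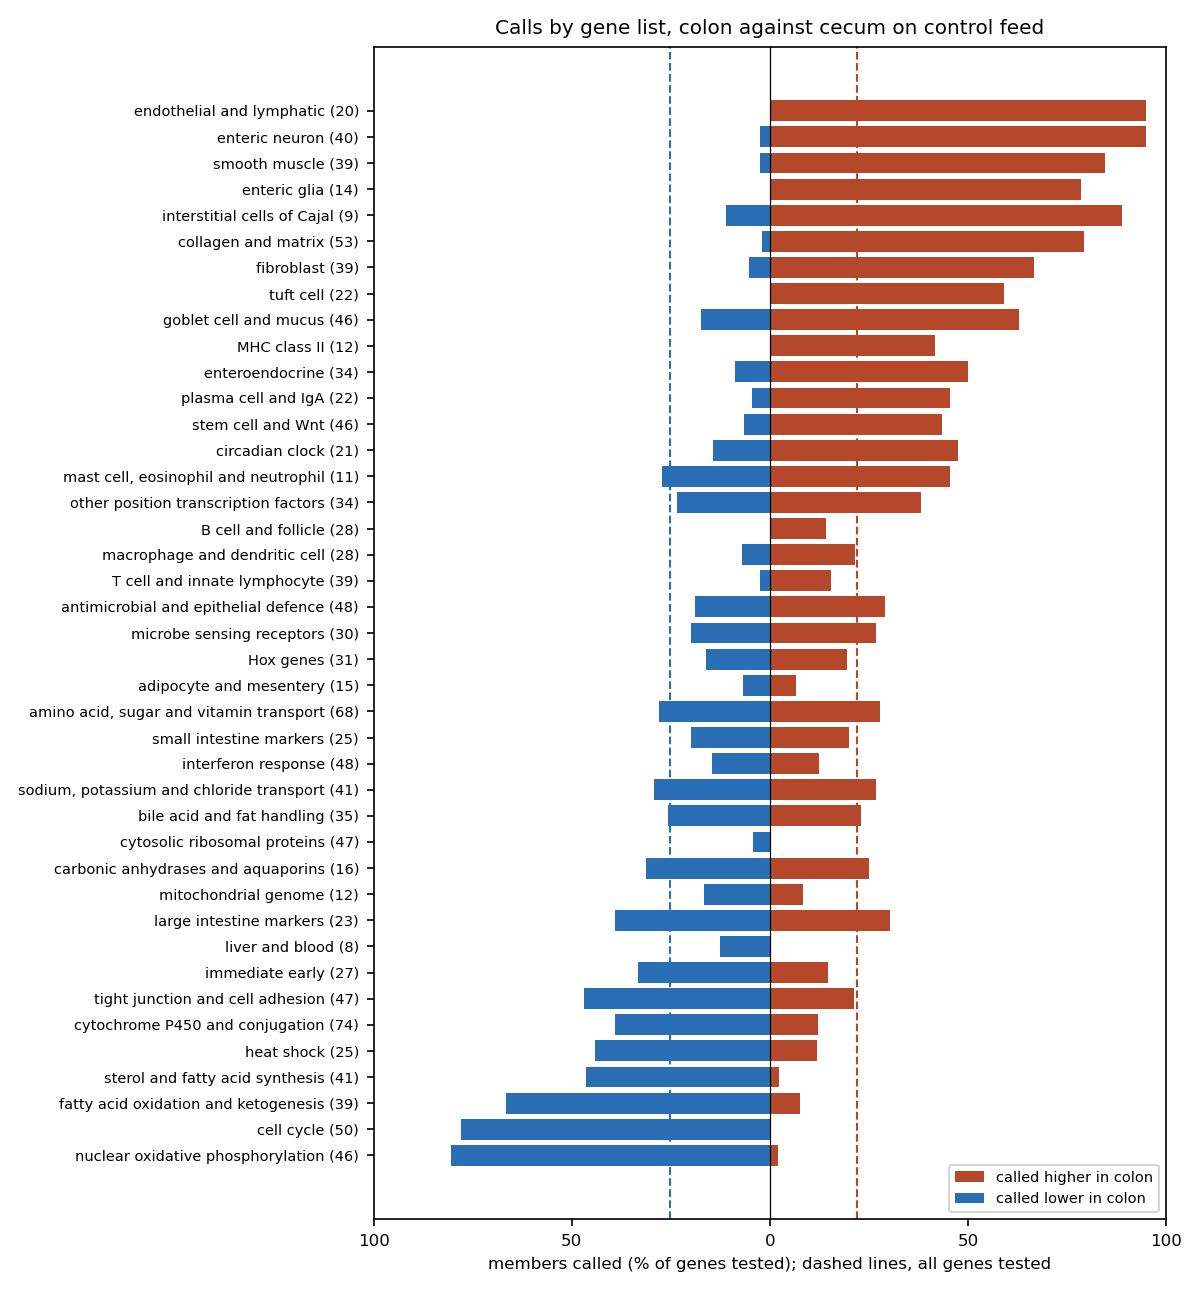
Percent of the tested members of each gene list called higher in colon (right, red) and lower in colon (left, blue), for lists with 8 or more tested members. Numbers in brackets are tested members and dashed lines are the shares over all tested genes, 21.9% higher and 25.3% lower. Nerve, muscle, vessel and matrix lists lie at the top, and cell cycle and nuclear oxidative phosphorylation lie at the bottom.

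The posterior Hox genes separated the regions, with colon 1 apart from the other colon libraries. Hoxb13 had 0, 67.9, 237, 220 and 45.5 CPM in colon, against 0, 0, 0 and 0.0627 CPM in cecum. Colon 2 to 5 were all above cecum and colon 1 lay within its range, and the 10423 counts in colon set against 1 count in cecum gave a ratio of 8470 (95% counting interval 1520 to 334000). Hoxa13 had 2.15, 35.1, 62.3, 55.5 and 38.4 CPM in colon, against 6.87, 5.03, 0.834 and 3.14 CPM in cecum. Colon 1 was again inside the cecum range, and the log2 fold change was 3.27 (SE 0.90, edgeR adjusted p = 0.0166), with 0.0877 for the edgeR adjusted p without colon 3 and 4 and 0.0645 without colon 2 and 3. Hoxd13 had 0.262, 7.35, 31.3, 12.9 and 1.25 CPM in colon, against 0 CPM in each cecum library. Every colon library was above cecum, colon was at least 260-fold higher when 3 counts over the cecum group are taken as the floor, and the edgeR adjusted p of 0.0349 became 0.0557 to 0.0576 when any of the 4 cecum libraries was left out.

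Hox genes of more anterior paralog groups did not move as a block. Hoxa9 had 5.76, 26.5, 36.3, 44.1 and 44.4 CPM in colon, against 89.2, 80.5, 82.3 and 78.3 CPM in cecum. All colon libraries lay below all cecum libraries, and the log2 fold change was -1.39 (SE 0.41, edgeR adjusted p = 0.0158, and 0.068 without colon 2 and 3). Hoxc6 (log2 fold change -2.51), Hoxc8 (-0.98) and Hoxc9 (-2.99) were also lower in colon, from at most 3.63 CPM in any colon or cecum library. Hoxa11 (1.07) and Hoxd11 (1.73, 2.33 without cecum 2, and an edgeR adjusted p of 0.0586 without colon 2 and 3) were higher, and so was Hoxb2, with 0.911 to 1.66 CPM in colon and 0.278 to 0.636 CPM in cecum. Hoxd10 had 1.61 to 6.13 CPM in colon and 2.76 to 4.03 CPM in cecum, and its log2 fold change was 0.06 (SE 0.35, edgeR adjusted p = 0.911). In all, 6 of 31 tested Hox genes were called higher (19.4%) and 5 lower (16.1%), with a median of -0.25. The count called higher was 2 without colon 2 and 3 and 3 without colon 3 and 4. The count called lower was 10 without colon 1, 3 without cecum 2 or without cecum 5, 2 without colon 2 and 3, and 3 with upper-quartile scaling. Among these calls, that of Hoxc8 was lost without cecum 2, without cecum 5 or without colon 4 (edgeR adjusted p of 0.054 to 0.076), and without colon 2 and 3 (0.0523).

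Of 34 other tested transcription factors of gut position, 13 were called higher (38.2%) and 8 lower (23.5%), with a median of 0.12. Nkx3-2, a homeobox factor of gut mesenchyme, had 10.2, 15.8, 12.2, 5.52 and 17.4 CPM in colon, against 0.063, 0, 0 and 0 CPM in cecum. Colon 1 was here level with the other colon libraries, and 1136 counts in colon against 1 count in cecum gave a ratio of 923 (95% counting interval 165 to 36500). Creb3l3, a factor of lipid metabolism in liver and intestine, was lower in colon (log2 fold change -3.23, SE 0.45), and so was Prdm1, a repressor in intestinal and plasma cell maturation (-2.66, SE 0.20). The intestinal identity factors Cdx2 (-1.20) and Hnf4a (-0.70) were lower too, and Cdx2 had 104 to 296 CPM in colon and 349 to 472 CPM in cecum. The mesenchymal factors Foxf1 (0.84) and Foxf2 (1.53), the cofactor Meis2 (0.81) and the nuclear receptor Nr5a2 (1.30) were higher.

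**Figure D2:**
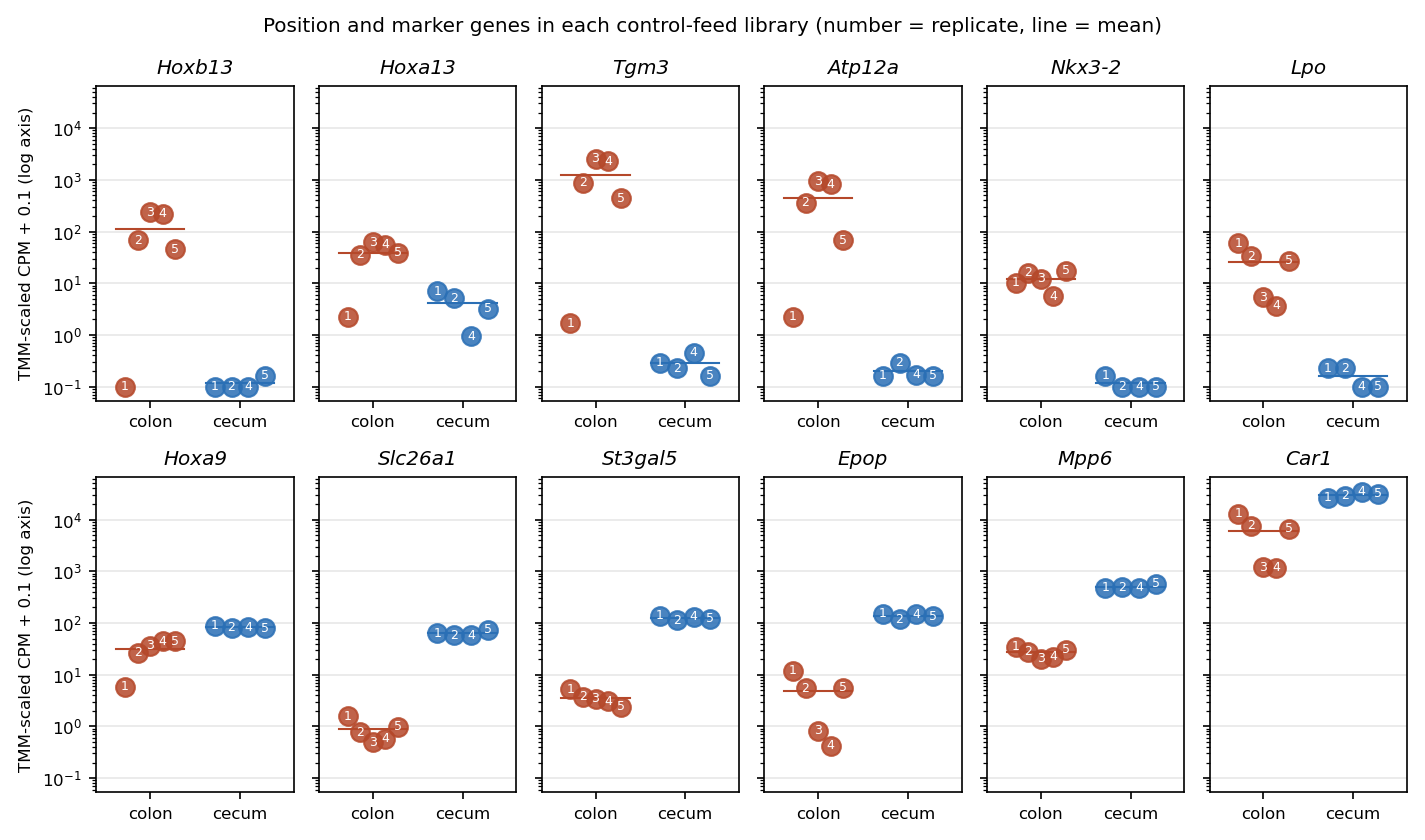
TMM-scaled CPM plus 0.1 on a log axis for 12 genes in the control-feed libraries, with colon in red left of cecum in blue. Each point is a library, the number in it is the replicate and the line is the group mean. Colon 1 sits with cecum for Hoxb13 and Hoxa13, and with the other colon libraries for Nkx3-2, Slc26a1 and Mpp6.

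The 15 largest rises among genes at 10 CPM or more had log2 fold changes of 5.69 to 12.69. Tgm3, a transglutaminase that cross-links proteins and whose promoter is printed above, had 1.57, 886, 2530, 2270 and 435 CPM in colon, against 0.189, 0.127, 0.348 and 0.0627 CPM in cecum. Colon 1 was above cecum but far below the other colon libraries, and the log2 fold change was 12.69 (SE 1.97, edgeR adjusted p = 0.000327). Mptx1, a mucosal pentraxin of the innate defence, had 0.89, 1220, 4770, 4850 and 266 CPM in colon, against 0.504, 0.318, 0.834 and 0.753 CPM in cecum. Atp12a, the proton and potassium pump of the colonocyte surface, had 2.15, 362, 936, 820 and 68.1 CPM in colon, against 0.063, 0.191, 0.0695 and 0.0627 CPM in cecum. In these 3 genes colon 3 and 4 were highest, colon 5 lower and colon 1 close to cecum, and without colon 3 and 4 the log2 fold changes were 11.24 for Tgm3, 9.70 for Mptx1 in place of 11.84, and 10.45 for Atp12a in place of 12.04.

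Lpo and Slc13a1 had another order among the colon libraries. Lpo, a secreted peroxidase that makes antimicrobial hypothiocyanite, had 59.1, 32.8, 5.22, 3.54 and 27 CPM in colon, against 0.126, 0.127, 0 and 0 CPM in cecum. Slc13a1, which takes up sulfate with sodium, had 78.1, 63.8, 8.71, 8.36 and 47.2 CPM in colon, against 0.189, 0.509, 0.973 and 0.376 CPM in cecum. Colon 1 was the highest and colon 3 and 4 the lowest in both genes, and neither gene overlapped with cecum. The log2 fold changes were 8.48 (SE 1.43) for Lpo and 6.34 (SE 1.06) for Slc13a1. Thbs4, a matrix glycoprotein, had 15.9, 118, 293, 304 and 123 CPM in colon, against 1.51, 2.1, 1.04 and 1.51 CPM in cecum, a log2 fold change of 6.78 (SE 0.84). Colon 1 was the lowest colon library in 11 of the 15 rises.

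Other large rises were Nxpe4 (log2 fold change 7.07) and Nxpe2 (5.69), B3gnt7 (7.02), which extends sugar chains on glycoproteins, and Ang4 (7.09) and Insl5 (10.02), described with their cell types below. Clps, the colipase of fat digestion, had 5.71, 51.2, 44.4, 16.8 and 4.78 CPM in colon, against 0.063, 0, 0.139 and 0.251 CPM in cecum. Spink1, a trypsin inhibitor, had 10.8, 103, 180, 152 and 38.4 CPM in colon, against 0.882, 0.318, 0.417 and 0.314 CPM in cecum. Both were above every cecum library in colon 1, 4 and 5 as well as in colon 2 and 3. Both are also pancreatic genes, and a pancreatic part in their levels was not tested. The log2 fold change of Clps was 7.67 (SE 1.18), 6.25 without colon 2 and 3 and 8.40 without cecum 5, and that of Spink1 was 7.62 (SE 0.96). The calls of the acinar genes Reg1, Ctrl and Cela1 were lost when colon 2 and 3 were left out. Reg1 had 0.209, 44.9, 21.5, 0 and 0.104 CPM in colon and 0 CPM in each cecum library, and Ctrl had 0.942, 42.1, 38.8, 0.965 and 0.624 CPM in colon, against 1.39, 1.4, 1.11 and 1.32 CPM in cecum. Without colon 2 and 3 the edgeR adjusted p was 0.0643 for Reg1, 0.133 for Ctrl, with a log2 fold change of -0.61, and 0.0675 for Cela1, with a log2 fold change of 0.98 in place of 1.76. Cela1 was at 179 CPM in colon 4, against 45.1 to 49.7 CPM in cecum, and its call was also lost without colon 3 and 4 (0.0639). The calls of Reg1 (0.0668 to 0.0698) and Ctrl (0.0749 to 0.0798) were also lost when any of the 4 cecum libraries was left out.

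The 15 largest falls had log2 fold changes of -3.49 or below and were tighter among colon libraries than the rises. St3gal5, the synthase of ganglioside GM3, had 5.08, 3.65, 3.31, 2.95 and 2.29 CPM in colon, against 138, 112, 133 and 121 CPM in cecum. Slc26a1, an exchanger of sulfate and other anions, had 1.47, 0.663, 0.393, 0.482 and 0.884 CPM in colon, against 63.6, 58.4, 58.3 and 73.2 CPM in cecum. Mpp6, a membrane scaffold, had 34.6, 27.5, 20.4, 22.3 and 30.6 CPM in colon, against 483, 491, 482 and 576 CPM in cecum. All colon libraries of these 3 genes, colon 1 included, lay far below cecum. The log2 fold changes were -5.18 (SE 0.18) for St3gal5, -6.32 (SE 0.24) for Slc26a1 and -4.23 (SE 0.18) for Mpp6, with edgeR adjusted p-values of 5.99e-10, 1.19e-09 and 3.16e-09. The sulfate carriers Slc13a1 and Slc26a1 thus stood on opposite sides of the contrast.

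Epop, a partner of the repressive PRC2 complex, varied more, with 11.7, 5.36, 0.73, 0.322 and 5.46 CPM in colon, against 151, 117, 146 and 135 CPM in cecum. Its log2 fold change was -4.86 (SE 0.66), and -5.50 without colon 1. Cyp4f15, a fatty acid hydroxylase, had 0.0524, 0, 0, 0.214 and 0.052 CPM in colon, against 14.2, 12.3, 18.1 and 9.41 CPM in cecum, and Tex19.1, which restrains retrotransposons in the germ line, had 0 to 0.214 CPM in colon and 8.72 to 12.1 CPM in cecum. Their log2 fold changes were -7.56 and -7.03, and -8.61 and -7.80 without colon 4. Gal3st2c, a sugar sulfotransferase with close paralogs among which reads may be split, had 3.19, 14, 42.2, 51.9 and 9.88 CPM in colon, against 1180, 1070, 1570 and 1180 CPM in cecum. Here colon 1 was the farthest from cecum, and the log2 fold change of -5.69 became -7.09 without colon 3 and 4. Others among these falls were Mal (-4.37), an apical sorting protein, Slc27a2 (-4.30), which takes up and activates very long fatty acids, Acox2 (-3.49), a peroxisomal oxidase, Sprr1a (-3.95), a cornified envelope protein, Vsig2 (-3.87), Pbp2 (-4.83) and Mcpt1 (-4.78).

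Muscle, nerve, vessel and matrix genes were higher in colon almost throughout. Of 39 smooth muscle genes tested, 33 were called higher and 1 lower (median 1.04), and Myh11, the smooth muscle myosin, had 1730, 2150, 2020, 1610 and 2270 CPM in colon, against 1010, 1250, 832 and 1080 CPM in cecum. Of 40 neuron genes, 38 were called higher and 1 lower (median 1.82). Tac1, the precursor of substance P in enteric neurons and endocrine cells, had 19.7, 24.5, 18.7, 17.1 and 22 CPM in colon, against 2.02, 3.37, 2.99 and 3.2 CPM in cecum. No library of either gene overlapped between regions, and the log2 fold changes were 0.90 (SE 0.18) for Myh11 and 2.82 (SE 0.24) for Tac1. The neuronal genes Uchl1 (2.02), Stmn2 (1.55) and Scg2 (1.96) were higher as well, and Chrm3, a muscarinic receptor also found on muscle, had 2.83 to 5.2 CPM in colon and 0.834 to 1.13 CPM in cecum. Summed over the lists, smooth muscle reached 12100 to 16500 CPM in colon and 7170 to 9060 CPM in cecum, and neuron genes reached 434 to 588 CPM in colon and 213 to 247 CPM in cecum. In bulk tissue, more cells of a type and more RNA per cell cannot be told apart.

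Pacemaker, glial, vascular and stromal lists pointed the same way. Of 9 tested genes of interstitial cells of Cajal, 8 were called higher and 1 lower (median 1.62). Kit, the receptor that marks these cells and mast cells, had 58, 49, 50.7, 57.6 and 71.3 CPM in colon, against 20.5, 22.7, 21.4 and 20.5 CPM in cecum, a log2 fold change of 1.43 (SE 0.11, edgeR adjusted p = 8.40e-07). Ano1, their chloride channel that epithelium also uses, was higher by 3.55 (2.72 without colon 3 and 4), and the endothelin Edn3 (-1.80) was the member that fell. Of 14 glial genes, 11 were called higher and 0 lower (median 1.32), among them the adhesion molecule Ncam1 (1.58). The summed glial level overlapped between regions, at 385 to 652 CPM in colon and 417 to 584 CPM in cecum, with colon 1 below every cecum library. Of 20 endothelial and lymphatic genes, 19 were called higher and 0 lower (median 1.10), with Tie1 (1.61), Eng (1.28) and Lyve1 (1.19). Of 39 fibroblast genes, 26 were higher and 2 lower (median 0.79), and of 53 collagen and matrix genes, 42 were higher and 1 lower (median 1.14). Lama5, a laminin chain of the epithelial basement membrane, had 37, 51.4, 54.2, 49.3 and 54.6 CPM in colon, against 15.5, 20.8, 14.7 and 13.1 CPM in cecum. Colon 1 was the lowest colon library for the muscle, glia, fibroblast, matrix and vessel sums but the highest for the neuron sum.

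**Figure D3:**
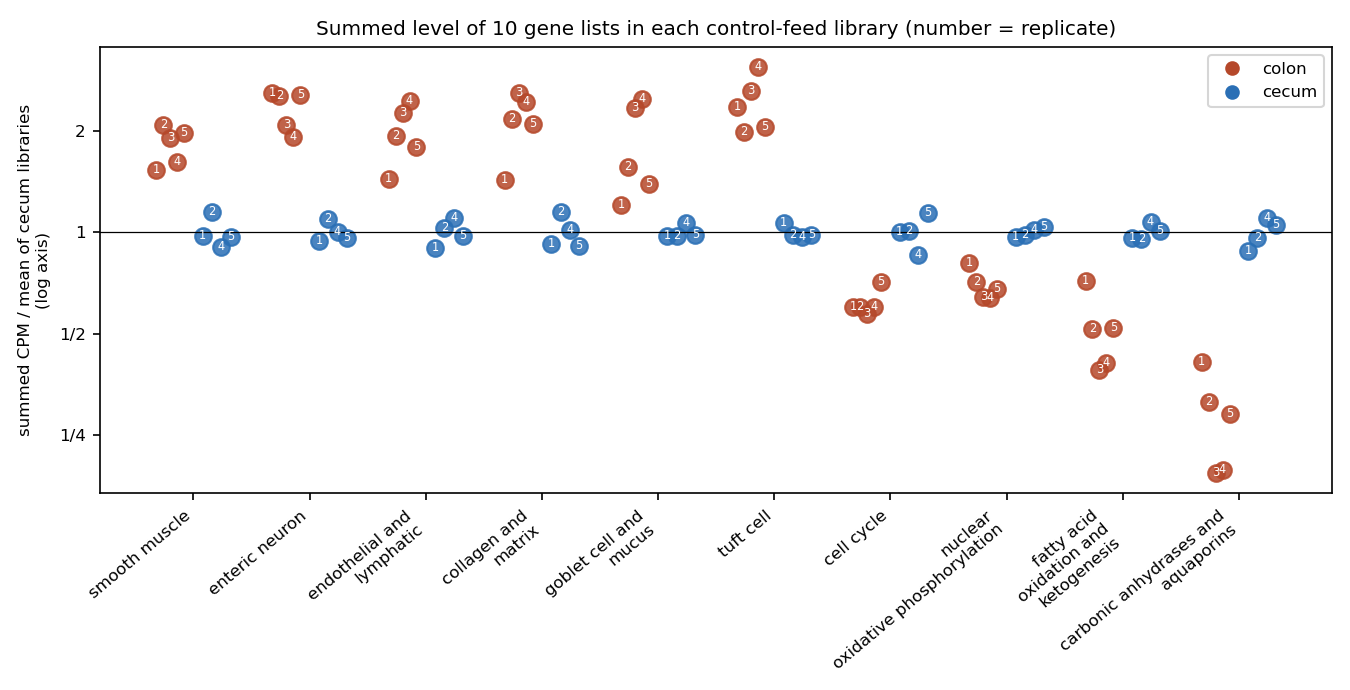
Summed CPM of the tested members of 10 gene lists in each control-feed library, divided by the mean of the cecum libraries, on a log axis. Colon points are red and left of the blue cecum points, and the number is the replicate. The smooth muscle, neuron, vessel, matrix, goblet and tuft sums lie above 1 in all colon libraries. The cell cycle, oxidative phosphorylation, fatty acid oxidation, and carbonic anhydrase and aquaporin sums lie below 1. The last of these is mostly Car1, which was not called and averaged 30400 CPM in cecum, where the whole list averaged 36800 CPM.

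Goblet cell and mucus genes were mostly higher in colon. Of 46 tested, 29 were called higher (63%) and 8 lower (17.4%), with a median of 0.97 and of 0.56 without colon 3 and 4. Muc2, the gel-forming mucin, had 8450, 5080, 4850, 5910 and 6360 CPM in colon, against 1370, 1330, 1510 and 1450 CPM in cecum. All colon libraries were above cecum, colon 1 highest, and the log2 fold change was 2.11 (SE 0.15, edgeR adjusted p = 3.97e-07). Agr2 (1.82), a disulfide isomerase that folds mucin, Creb3l1 (1.56), a secretory pathway factor, Tpsg1 (1.57) and Zg16 (1.08), a lectin that binds bacteria, were also higher. Zg16 had 2300 to 4820 CPM in colon and 1610 to 1910 CPM in cecum. Sugar-chain enzymes were among the members that fell, with B4galnt2 (-1.33), Gcnt3 (-1.41) and Galnt3 (-0.77), and so was the membrane mucin Muc4 (-1.54). Retnlb, a goblet cell product that acts on bacteria, had 7.59, 139, 326, 222 and 72.2 CPM in colon, against 97.4, 119, 113 and 132 CPM in cecum, and its log2 fold change of 0.41 (SE 0.69, edgeR adjusted p = 0.656) was -0.65 without colon 3 and 4. The level of Retnlb thus spanned both sides of cecum within colon.

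Among enteroendocrine and tuft cell genes, more were called higher than lower in colon. Of 34 enteroendocrine genes, 17 were called higher (50%) and 3 lower (8.82%), with a median of 1.10. Insl5, a hormone of colonic L cells, had 1.36, 14.3, 40.9, 54.4 and 10.6 CPM in colon, against 0, 0, 0.0695 and 0 CPM in cecum. All colon libraries were above cecum with colon 1 lowest, and 2233 counts in colon against 1 count in cecum gave a ratio of 1810 (95% counting interval 325 to 71700). Pyy, which slows gut transit and appetite, had 70.7, 51.8, 64.4, 65.2 and 39.7 CPM in colon, against 18.4, 12.7, 14.1 and 14.7 CPM in cecum, a log2 fold change of 1.96 (SE 0.17). Gcg, the proglucagon gene of the same L cells, had 13.3 to 25.8 CPM in colon and 14.9 to 17.2 CPM in cecum, and its log2 fold change was 0.19 (SE 0.23, edgeR adjusted p = 0.505). Secretin, encoded by Sct (-1.96, and -2.55 without colon 1), the calcium-sensing receptor Casr (-2.57) and the amine synthesis enzyme Ddc (-0.79) were the members that fell. Some of the endocrine members, Tac1 and Scg2 among them, are also neuronal genes, whose list was higher in colon, and the part of neurons in the endocrine counts was not tested. Of 22 tuft cell genes, 13 were called higher (59.1%) and 0 lower, with a median of 0.96. Dclk1 (1.47), Chat (1.87), Hpgds (2.00, and 1.31 without colon 3 and 4) and Cd24a (0.85) had the smallest p-values, and of these Chat also marks enteric neurons.

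Stem cell and Wnt pathway genes gave 20 higher (43.5%) and 3 lower (6.52%) of 46, with a median of 0.54. Bmp3, a secreted member of the BMP family, had 155, 90.6, 60.6, 68.2 and 94.3 CPM in colon, against 8.19, 7.32, 12 and 6.15 CPM in cecum. The groups did not overlap and the log2 fold change was 3.48 (SE 0.31, edgeR adjusted p = 4.31e-06). Wnt5a (1.24), a mesenchymal ligand, Dkk3 (1.65) and Lrig1 (0.82) were higher. Prom1 (-1.03), Ascl2 (-1.24) and Bmi1 (-0.28) were lower, and the edgeR adjusted p of Ascl2 was 0.0889 without cecum 1 and 0.108 without colon 2 and 3, and that of Bmi1 was 0.127 without colon 3 and 4. Lgr5, the receptor that marks crypt base stem cells, had 2.27 to 3.93 CPM in colon and 3.68 to 5.86 CPM in cecum, and its log2 fold change was -0.51 (SE 0.21, edgeR adjusted p = 0.0585).

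Cell cycle genes were lower in colon as a group. None of 50 was called higher and 39 were called lower (78%), with a median of -0.76. Rrm2, which makes deoxynucleotides, had 7.64, 8.79, 5.95, 7.61 and 10.3 CPM in colon, against 38.1, 39.1, 30.1 and 40.3 CPM in cecum. All colon libraries lay below all cecum libraries, with a log2 fold change of -2.19 (SE 0.18, edgeR adjusted p = 1.15e-06). The mitotic gene Birc5 (-1.03), the replication helicase subunit Mcm3 (-0.97) and thymidine kinase Tk1 (-0.84) were lower too. The list summed to 657 to 822 CPM in colon and 983 to 1310 CPM in cecum, a ratio of means of 0.617. Muscle and nerve sums were higher in the same colon libraries, and whether they have a part in this difference was not tested.

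Defence genes went both ways, as did all tested genes (21.9% higher and 25.3% lower). Of 48 antimicrobial and epithelial defence genes, 14 were called higher (29.2%) and 9 lower (18.8%), with a median of 0.44, and 9 were called higher without cecum 1. Ang4, an angiogenin that kills bacteria, had 9.79, 379, 1180, 1070 and 172 CPM in colon, against 4.98, 3.56, 6.19 and 1.82 CPM in cecum. Ccl6, a chemokine, had 290, 240, 172, 199 and 193 CPM in colon, against 35.5, 43.7, 38.2 and 40.1 CPM in cecum. Colon 1 was lowest for Ang4 and highest for Ccl6, with log2 fold changes of 7.09 (SE 1.22) and 2.48 (SE 0.17). Reg4, a lectin of endocrine and secretory cells, had 10.5, 17.4, 117, 137 and 6.24 CPM in colon, against 636, 518, 655 and 602 CPM in cecum. It was lower in colon, with a log2 fold change of -3.39 (SE 0.81), and of -5.71 without colon 3 and 4. Saa3 (-2.99), an acute phase protein, and Sprr2h, with 3 counts in colon against 102 in cecum and a ratio of 0.0239 (95% counting interval 0.00485 to 0.0718), were lower as well. Reg3b, a lectin against Gram-negative bacteria, had 71.5, 270, 0.843, 32.1 and 100 CPM in colon, against 1.26, 1.97, 10.5 and 0.376 CPM in cecum. The regions overlapped through colon 3 and cecum 4, and the log2 fold change of 4.77 (SE 1.34, edgeR adjusted p = 0.0128) was 6.29 without cecum 4 and 3.89 without colon 2.

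Of 30 microbe sensing receptors, 8 were called higher (26.7%, and 5 genes without cecum 4) and 6 lower (20%), close to the shares over all genes. Tlr4, the receptor for lipopolysaccharide, had 17, 40.6, 59.3, 48.3 and 34.8 CPM in colon, against 9.39, 13.4, 12 and 10.7 CPM in cecum, a log2 fold change of 1.82 (SE 0.27). Ffar2, which senses short-chain fatty acids, had 11.2, 6.47, 6.46, 8.74 and 9.78 CPM in colon, against 1.32, 1.02, 0.834 and 1 CPM in cecum, a log2 fold change of 3.02 (SE 0.22). Neither gene overlapped between regions. Nod1 (0.73) was higher, and Nod2 (-0.73), the flagellin sensor subunit Nlrc4 (-0.51) and the DNA sensor Aim2 (-0.58) were lower.

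Salt transport genes were called in both directions, at shares close to those over all tested genes (21.9% higher and 25.3% lower). Of 41 sodium, potassium and chloride transport genes, 11 were called higher (26.8%) and 12 lower (29.3%), with a median of -0.11 that was 0.02 with upper-quartile scaling, and 6 were called higher without cecum 5. Slc9a3, the apical sodium and proton exchanger, had 585, 1170, 1240, 1160 and 1150 CPM in colon, against 436, 493, 325 and 465 CPM in cecum, a log2 fold change of 1.30 (SE 0.26, edgeR adjusted p = 0.00132). Its scaffold Slc9a3r1 went the other way, with 435 to 531 CPM in colon, 1040 to 1170 CPM in cecum and a log2 fold change of -1.15 (SE 0.09). Scnn1b, a subunit of the epithelial sodium channel, was higher by 1.06 (SE 0.34, edgeR adjusted p = 0.0194), a call lost without cecum 5 (0.065) and without colon 2 and 3 (0.0915). Slc12a2 (0.80), which loads chloride for secretion, was higher, and Sgk1 (-1.21), a kinase induced by aldosterone, was lower. Slc26a3, the chloride and bicarbonate exchanger, had 159, 1270, 2490, 2170 and 1200 CPM in colon, against 2200, 2450, 2390 and 2640 CPM in cecum. Colon 3 reached the cecum range and colon 1 lay far below it, and no difference was called (log2 fold change -0.73, SE 0.52, edgeR adjusted p = 0.27).

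Carbonic anhydrases and aquaporins gave 4 higher and 5 lower of 16. Car1 had 12900, 7610, 1210, 1180 and 6710 CPM in colon, against 26400, 29200, 34500 and 31800 CPM in cecum. Every colon library was below every cecum library, but the spread within colon left the log2 fold change of -2.36 with SE 1.18 and an edgeR adjusted p of 0.122. Car12 (-2.46), Car2 (-1.13) and Car9 (-0.97) were called lower and Car4 (1.22) higher. Aqp8, a water channel of surface colonocytes, had 67.3, 914, 1640, 1550 and 939 CPM in colon, against 3210, 3360, 3280 and 3900 CPM in cecum, and was not called (log2 fold change -1.75, SE 0.81, edgeR adjusted p = 0.0974). Aqp4, a basolateral water channel, had 39.8, 452, 838, 1180 and 668 CPM in colon, against 16.3, 25.6, 16.7 and 24.1 CPM in cecum, a log2 fold change of 4.94 (SE 0.79). Colon 1 was the lowest colon library of Aqp8 and Aqp4, which brought it farther from cecum for Aqp8 and nearer for Aqp4.

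Amino acid, sugar and vitamin carriers were called higher in 19 and lower in 19 of 68. Slc1a1, a glutamate carrier, had 10.1, 10.3, 17.4, 23.2 and 11 CPM in colon, against 1.7, 1.02, 0.556 and 1.07 CPM in cecum, a log2 fold change of 3.71 (SE 0.34). Slc7a9 (4.67), a subunit of the cystine carrier, and Slc5a1 (1.21) and Slc5a9 (2.33), which take up sugars with sodium, were higher. Slc2a1 (-1.23), a glucose carrier, and Slc23a2 (-1.41), a vitamin C carrier, were lower. Slc7a9 had 309 to 399 CPM in ileum, far above both 8.2 to 17.1 CPM in colon and 0.189 to 0.973 CPM in cecum. The sterol export pumps Abcg5 (4.08, and 5.09 without cecum 4) and Abcg8 (3.97, and 5.32 without cecum 4) shared this order, with Abcg5 at 284 to 373 CPM in ileum. Over all 25 small intestine markers, 5 were called higher and 5 lower, with a median of 1.14 and of -0.12 without colon 3 and 4. Their sum went the other way from the median of 1.14, with 1980 to 2900 CPM in colon and 3770 to 4510 CPM in cecum.

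Most genes of fatty acid oxidation and ketogenesis were lower in colon. Of 39 fatty acid oxidation and ketogenesis genes, 3 were called higher (7.69%) and 26 lower (66.7%), with a median of -0.74. Slc16a1, which carries butyrate and lactate, had 301, 362, 466, 515 and 424 CPM in colon, against 1370, 1350, 1480 and 1400 CPM in cecum. The groups did not overlap and the log2 fold change was -1.76 (SE 0.13, edgeR adjusted p = 4.77e-07). Hadha (-1.05), of the mitochondrial trifunctional protein, and the electron carriers Etfa (-0.91) and Etfdh (-0.75) were lower. The 3 genes that were higher were Ppargc1a (1.85), a coactivator of mitochondrial genes, Oxct1 (1.10), which uses ketone bodies, and Acsm3 (2.92, and 2.23 without colon 3 and 4), which activates medium-chain acids. Of 46 nuclear oxidative phosphorylation genes, 1 was called higher and 37 lower (80.4%), with a median of -0.49, and Uqcrfs1, of complex III, had 255 to 303 CPM in colon and 516 to 573 CPM in cecum. Of the 12 tested genes of the mitochondrial genome, 1 was called higher and 2 lower, with a median of -0.08 that was 0.05 with upper-quartile scaling (3 higher and 1 lower), and mt-Co1 had 23500 to 27200 CPM in colon and 40500 to 49900 CPM in cecum. The summed fatty acid oxidation genes were 4450 to 8190 CPM in colon and 10900 to 12200 CPM in cecum, and the part of the muscle and nerve sums in these differences was not tested.

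Sterol and fatty acid synthesis gave 1 higher and 19 lower of 41 (median -0.48), with Mvd (-1.09), of the cholesterol pathway, among the falls and Elovl5 (0.47, with an edgeR adjusted p of 0.0779 without cecum 4) as the rise. On arsenic feed the same list gave 2 higher and 6 lower. Cytochrome P450 and conjugation genes gave 9 higher and 29 lower of 74 (median -0.42). Gstm3, a glutathione transferase, had 36.7, 21.9, 19.4, 23.3 and 20.3 CPM in colon, against 102, 84.6, 91.3 and 95.4 CPM in cecum, a log2 fold change of -1.94 (SE 0.17). Sult1d1 (-1.38), a sulfotransferase, Cyp3a13 (-0.74) and the carboxylesterase Ces2c (-0.88) were lower. Cyp2c68 (4.64), Cyp2d9 (2.56), Cyp2d10 (2.72) and Cyp2d12 (4.65) were higher, and these have close paralogs among which reads may be split. Cyp2c68 had 6.13, 26.7, 77.5, 106 and 18.8 CPM in colon, against 1.83, 1.59, 2.29 and 1.82 CPM in cecum, with colon 1 nearest to cecum. Of 35 bile acid and fat handling genes, 8 were called higher and 9 lower. Fabp2 (-1.85), a fatty acid binding protein, and the exporters Abcc3 (-1.18) and Abcg2 (-1.04) were lower.

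Of 47 tight junction and adhesion genes, 10 were called higher (21.3%) and 22 lower (46.8%), with a median of 0.02 on arsenic feed and -0.23 on control feed. Cldn4, a claudin, had 86.4, 85, 71.8, 66.9 and 62.7 CPM in colon, against 273, 295, 474 and 325 CPM in cecum, a log2 fold change of -2.20 (SE 0.18). Cdh17 (-0.80), the cadherin of intestinal epithelium, the microvillus protein Vil1 (-0.86), Krt20 (-1.07) and Ceacam1 (-0.91), which epithelial cells carry, were lower, and Jam2 (1.78) and Jam3 (1.20), adhesion molecules that vessels also use, were higher. All of the 23 large intestine markers tested summed to 40300 to 46700 CPM in colon and 76700 to 84400 CPM in cecum, with 7 called higher and 9 lower. Epithelial genes that fell and muscle and nerve genes that rose were measured in the same pieces of tissue, and their part in each other's values was not tested.

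B cell, T cell and macrophage genes had a smaller share of calls than all tested genes. Of 28 B cell genes, 4 were called higher and 0 lower, of 39 T cell and innate lymphocyte genes, 6 higher and 1 lower, and of 28 macrophage and dendritic cell genes, 6 higher and 2 lower. The B cell count called higher was 2 without cecum 2, 4 or 5 or colon 4. The T cell counts were 3 higher without cecum 2 and 6 lower without colon 1, and the macrophage count called higher was 3 without cecum 1, cecum 4 or colon 4 and 11 without colon 1. The B cell sum was 72.2, 128, 235, 321 and 89.9 CPM in colon, against 170, 58.8, 51 and 67.5 CPM in cecum, so the regions overlapped. Of 22 plasma cell and IgA genes, 10 were called higher (45.5%, and 6 genes without cecum 5) and 1 lower, and Jchain, the joining chain of IgA, had 243, 569, 777, 881 and 311 CPM in colon, against 199, 225, 214 and 213 CPM in cecum. The log2 fold change of Jchain was 1.39 (SE 0.34, edgeR adjusted p = 0.0056), and on arsenic feed it was 0.59 (edgeR adjusted p = 0.148). The plasma cell and IgA sum overlapped between regions, at 4010 to 8550 CPM in colon and 3920 to 4720 CPM in cecum. Of this list, 15 genes were called higher without colon 1 and 5 without colon 3 and 4. On arsenic feed 5 were called higher and 1 lower, with a median of 0.13, against 1.04 on control feed. Of 12 MHC class II genes, 5 were higher and 0 lower (median 1.13), and Cd74, the invariant chain, had 645, 832, 285, 259 and 856 CPM in colon, against 161, 245, 88.5 and 288 CPM in cecum. Its log2 fold change was 1.56 (SE 0.42), with overlap of colon 3 and 4 and cecum 5, and no MHC class II gene was called on arsenic feed (edgeR, median -0.10).

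Of 11 mast cell, eosinophil and neutrophil genes, 5 were called higher and 3 lower, with 3 higher without cecum 2 or without colon 4. Mcpt1, a protease of mucosal mast cells, had 0.262, 0.498, 0.843, 0.536 and 0.156 CPM in colon, against 15.8, 10.5, 13.8 and 10.5 CPM in cecum. Mcpt2, a close paralog with which reads may be shared, had 0 to 0.429 CPM in colon and 3.5 to 7.31 CPM in cecum. No library of either gene overlapped, with log2 fold changes of -4.78 (SE 0.44) and -4.77 (SE 0.62). Tpsb2 (1.85), a tryptase of connective tissue mast cells, was higher, from 0.628 to 1.29 CPM in colon and 0.0627 to 0.509 CPM in cecum. The other member that fell was Cpa3 (-1.29), at a similar level, with 0.157 to 0.364 CPM in colon and 0.376 to 0.834 CPM in cecum. Its edgeR adjusted p of 0.0208 was 0.0665 without colon 2 and 3, 0.0596 without cecum 1 and 0.0655 without cecum 4. Ly6g, known as a neutrophil marker, had 0.105, 80.9, 192, 142 and 19.1 CPM in colon, against 0, 0.0636, 0.209 and 0.188 CPM in cecum. The order of its colon libraries was that of Tgm3. The 15 list members that the filter on low counts left out, S100a8, S100a9, Cxcr2 and Mpo among them, summed to 1.36 to 2.04 CPM in colon and 1.07 to 1.46 CPM in cecum. A low sum follows from that filter, and which cells the Ly6g counts came from was not tested.

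Of 48 interferon response genes, 6 were called higher (10 without colon 1) and 7 lower, with a median of -0.10 that was 0.03 with upper-quartile scaling. Cxcl10 (2.91) and Cxcl9 (2.28), chemokines that draw T cells, were higher, and Irf7 (-1.10) and Oasl1 (-0.90), both of the antiviral response, were lower. Of 47 cytosolic ribosomal protein genes, 0 were called higher and 2 lower, with 21 lower without colon 1. Their median was -0.09 and 0.04 with upper-quartile scaling. Heat shock genes gave 3 higher and 11 lower of 25, and 5 to 7 lower when cecum 1, 4 or 5 or colon 2, 3 or 5 was left out. The mitochondrial chaperone Hspd1 had 131 to 231 CPM in colon and 311 to 397 CPM in cecum (log2 fold change -0.90, SE 0.15), and the small heat shock genes Hspb1 (1.38), Cryab (1.25) and Hspb8 (0.77), which muscle expresses, were the rises. Immediate early genes gave 4 higher and 9 lower of 27, with a median of -0.09 that was 0.04 with upper-quartile scaling, with 3 lower without cecum 4, and with 7 higher without colon 1 and 2 higher without colon 2 and 3. Of 21 clock genes, 10 were called higher (47.6%) and 3 lower (14.3%). Dbp, a clock output factor, had 26.1 to 48.1 CPM in colon and 11.7 to 14.4 CPM in cecum, and the repressor Cry1 had 25.7 to 41.1 CPM in colon and 62.4 to 74.9 CPM in cecum.

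Markers of neighbouring tissues were looked at for the same libraries. Of 14 skeletal muscle genes 5 were tested, 2 called higher and 1 lower, and of 18 genes of the squamous anal canal 5 were tested and 2 called higher, Krt14 at 0.628 to 1.23 CPM and Sbsn at 1.52 to 3.04 CPM in colon. The 13 untested squamous genes summed to at most 2.58 CPM in colon and 0.626 CPM in cecum. Of 15 adipocyte and mesentery genes tested, 1 was called higher and 1 lower, and of 8 liver and blood genes, 0 higher and 1 lower. The adipocyte count called higher was 4 without colon 3, 5 without colon 4 and 7 without both. Of the male accessory gland genes 2 were tested and Spink1, also an acinar gene, was the member called, while the 8 untested ones had no count in colon or cecum. The 4 tested acinar genes were all called higher (median 5.64), and Spink1 was the member called when colon 2 and 3 were left out.

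The same contrast was measured on arsenic feed in 9 other libraries, none of which entered the control-feed contrast. There, 17022 genes were tested and 6576 called (38.6%), 3825 higher in colon (22.5%) and 2751 lower (16.2%). The split turned over when cecum 11, 13 or 15 was left out, with 42.9%, 43% and 43.4% of calls higher in place of 58.2% and a median over all genes of -0.11, -0.11 and -0.10 in place of 0.02, and it was 50.3% with DESeq2. Of the 3633 genes called higher on control feed and tested on arsenic feed, 2870 (79%) were called higher there too and 0 were called lower, and these were 75% of the arsenic-feed calls in that direction. Of the 4250 genes called lower on control feed and tested there, 2241 (52.7%) were called lower and 2 were called higher, and these were 81.5% of the arsenic-feed calls in that direction. When 1 arsenic-feed library was left out, the shares of control-feed calls also called there were 68% to 76.3% for higher and 41.3% to 68.3% for lower genes. Of the largest changes, 14 of the 15 rises and 15 of the 15 falls were called in the same direction, and Slc13a1 was the exception, with a log2 fold change of 2.78 (SE 1.05, edgeR adjusted p = 0.0515). In the arsenic-feed libraries Hoxb13 had 171, 42.4, 95.2 and 77.1 CPM in colon and 0 CPM in each cecum library. Tgm3 had 2240, 567, 1120 and 1050 CPM in colon, against 0.446, 0.748, 0.255, 0.585 and 0.401 CPM in cecum. No colon library there resembled colon 1 on control feed in these genes.

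**Figure D4:**
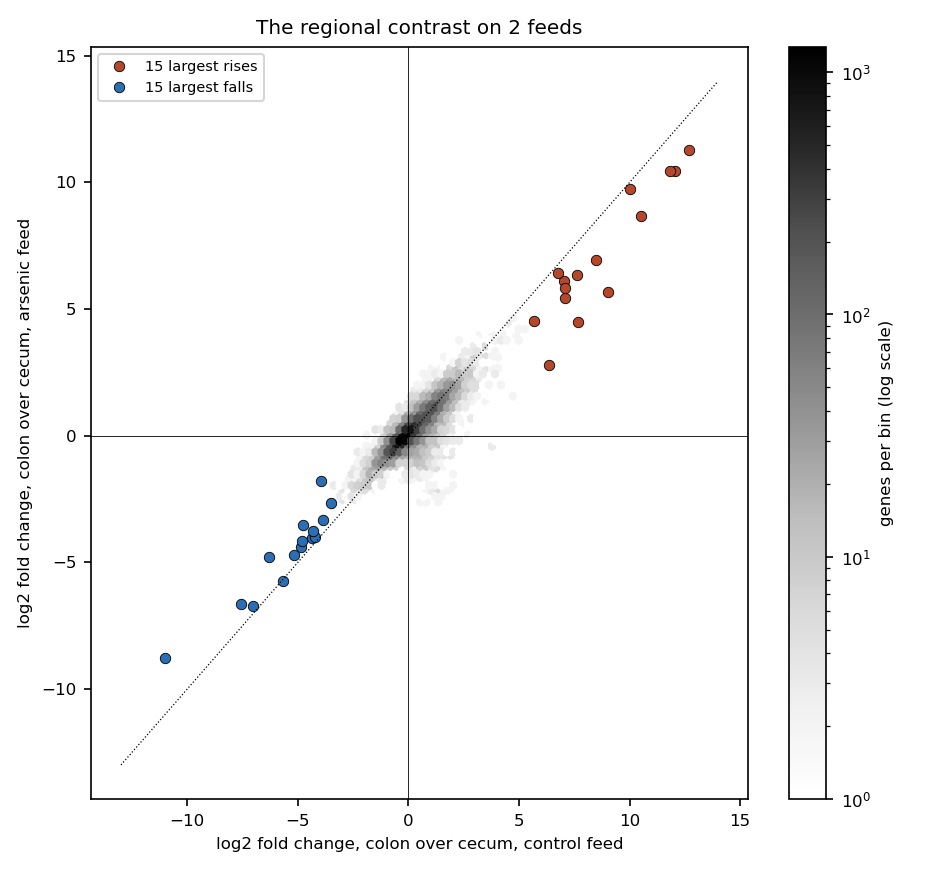
Log2 fold change of colon over cecum on control feed (x axis) and on arsenic feed (y axis) for 16595 genes tested on both feeds, shaded by genes per bin. Red points are the 15 largest rises, blue points the 15 largest falls, and the dotted line marks equal values. The red points lie above 0 and the blue points below 0 on both axes.

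A test of the difference between the feeds' contrasts, over 17763 genes in all 27 libraries, called 0 genes with edgeR (0%), with 1294 genes (7.28%) at an unadjusted p under 0.05 and 30 called by DESeq2. The smallest edgeR adjusted p was 0.18, for Sprr1a, whose log2 fold change was -1.77 on arsenic feed and -3.95 on control feed, a difference of 2.11. A p above the threshold does not show that the contrasts were equal on both feeds.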

How the data were processed

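Whole-tissue poly-A RNA was sequenced as paired reads from libraries of the NEBNext Ultra RNA kit, which does not mark strand, per the labels' protocols. Alignment and counting tools named in the submitters' processing notes were HTSeq 0.6.0, HISAT2 2.1.0 and SAMtools, beside DESeq2 1.6.3, and the genome build, annotation and strand setting are not given in the sources used here. Reads of a gene and of an antisense or overlapping partner cannot be told apart. The deposited table holds whole-number counts, not normalized, for 52550 Ensembl genes in 27 libraries, of which 52403 were matched to a symbol.

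Genes were filtered with edgeR 4.0.16 (filterByExpr, minimum count 10 and minimum total 15), scaled by TMM and fitted over the 13 control-feed libraries by region with the robust quasi-likelihood test in R 4.3.3. The 14 arsenic-feed libraries were fitted alike, and the difference of the contrasts was tested over all 27. Total counts ran from 15717600 to 18208518 per library. Counting intervals are exact, at 95%, and cover counting error only. Alternatives used limma 3.58.1 and DESeq2 1.42.0. Counts were also simulated for 16713 genes, with 100 genes changed 2-fold, 100 changed 4-fold and the same spread of a gene in all regions. Of these, 66% and 87% were called, and 3.77% of the calls were false. In the data 47.2% of genes were called and colon spread more than cecum. The simulation therefore does not measure the share of false calls among the 7970.

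Named genes were the 15 largest called changes per direction without overlap and with a mean of at least 10 CPM in the higher group, up to 4 called genes of smallest p per list and direction, and a set of region genes named whatever their result. Predicted genes were left out, and some genes that the rule names are not reported here. Ctrb1, S100a8, S100a9, Cxcr2 and Mpo were named after their values were seen. The members, the 45 lists and the named-gene rule were chosen with earlier results of these data known. Samples shared replicate numbers across regions, and the labels do not tie a number to a mouse.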

Additional observations from a re-analysis of the deposited data

Results flagged for a closer look

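In 178 genes named in the text, each region's highest and lowest library was set against the gap to its nearest neighbour (Dixon's ratio at the 95% level), a rule by which chance alone marks about 1 in 20 groups. It marked 21 values over both regions of these genes. Marks by chance are to be expected among them, and their causes were not tested.

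Colon 1 was marked for 6 genes. It was low for the sodium exchanger Slc9a3 (585 CPM, with 1150 to 1240 CPM in the other colon libraries), the cadherin Cdh17 (786 CPM, others 1000 to 1090 CPM) and the endothelial receptor Eng (14.4 CPM, others 18 to 19 CPM). It was high for Ascl2 (3.61 CPM, others 0.884 to 1.63 CPM), Gstm3 (36.7 CPM, others 19.4 to 23.3 CPM) and Car9 (72.2 CPM, others 51.1 to 57.2 CPM).

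Cecum 2 was high for Ano1 (23.2 CPM), Cryab (13.4 CPM), Hspb1 (43.9 CPM), Foxf1 (15.4 CPM), Meis2 (13.6 CPM), Hoxd11 (1.27 CPM) and Mal (1240 CPM). It also had the highest summed smooth muscle level in cecum, at 9060 CPM. Cecum 4 was high for B4galnt2 (769 CPM), Ppargc1a (18.1 CPM) and Reg3b (10.5 CPM) and low for Oasl1 (148 CPM). Cecum 5 was high for Car2 (1580 CPM), Car9 (121 CPM), Hspd1 (397 CPM) and Mpp6 (576 CPM).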

How the results depend on the processing

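Counts of called genes stayed within 1.5 times of 7970 under every alternative run on control feed, from 6033 without colon 2 and 3 to 9229 with limma voom, except for the 2719 genes called lower with upper-quartile scaling, against 4266 with TMM. Leaving out 1 library gave 6853 to 8931 calls. Of the 7970 genes, 7574 were also called by DESeq2 and 6423 with upper-quartile scaling, and none changed sign. The difference between feeds, 0 genes with edgeR, gave 30 with DESeq2 (27 higher and 3 lower), 1 (higher) with the colon and cecum libraries alone, and 0 to 2 (all higher) when 1 library was left out, namely 2 without colon 1 on control feed and 1 without colon 12 on arsenic feed. With the replicate number as a block the contrast gave 7751 calls on control feed and 6580 on arsenic feed, against 6576 without it. Same-numbered libraries deviated together weakly on control feed (r of 0.0781 to 0.214, against -0.21 to 0.112 for other pairs). All 4 colon libraries with a partner correlated best with their own number. On arsenic feed 3 colon libraries did so, with r of 0.0162 to 0.211 for same-numbered pairs. The main fit did not take the numbers as pairs, and whether they mark the same mice was not tested. Of 5780 gene values under an alternative, 5548 stood on the same side of the threshold, 222 lost the call, 9 gained it and 1 called value changed sign, Ctrl at -0.61 without colon 2 and 3. Retnlb, not called, also changed sign, with -0.65 without colon 3 and 4 and -0.19 without colon 2 and 3. Of 1890 list counts, 199 moved by over 1.5 times. The causes were not tested. The settings without colon 3 and 4, without colon 2 and 3, and without colon 1 in the colon and cecum libraries alone were chosen after seeing the data. Depth limits genes of a few counts, and the 5 and 4 libraries limit all others.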
